A study of Mus musculus with 10 samples.

Results

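Smooth muscle contractile genes encode the filaments with which a smooth muscle cell shortens and the proteins that switch them on. The 10 genes described here were taken by name from the 24470 entries of a gene count table: the actins Acta2 and Actg2, the myosin chains Myh11 and Myl9, the kinase Mylk, the thin filament proteins Tagln, Cnn1, Smtn and Lmod1, and the intermediate filament protein Des. All 10 were listed in the table, and the 8 that passed the low-count filter were tested.

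RNA was measured in whole testes of C57BL/6 mouse embryos at E12.5 that had been kept in organ culture for 48 h. From each of 5 embryos, 1 gonad was cultured with 75 µM GPI (an inhibitor of glycogen phosphorylase, which breaks glycogen down) and the contralateral gonad with the vehicle, DMSO. Gonads were cultured with the mesonephros attached and dissected from it before RNA was extracted, so each of the 10 libraries was made from 1 whole gonad. The inhibitor was added to the medium, and the authors describe it as targeting all cells of the gonad. The 5 embryos, M1 to M5, are the replicates, with 10203679 to 15590223 counts in a vehicle library and 11025409 to 15635322 in a GPI library.

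Smooth muscle contracts when a rise in calcium activates myosin light chain kinase, which phosphorylates the regulatory light chain and lets myosin pull on actin. Calponin, transgelin, smoothelin and leiomodin sit on the thin filament, and desmin filaments tie dense bodies and dense plaques together. In the testis these genes mark the peritubular myoid cells around the cords and the mural cells, pericytes and vascular smooth muscle, of its vessels, and serum response factor (SRF) with its cofactor myocardin drives many of them through CArG boxes in their promoters.

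One of the contractile genes differed between treatments. Smtn fell with GPI, and the estimates for Acta2, Myh11, Mylk and Tagln lay between -0.15 and -0.08 on the log2 scale, none of them past the threshold. Of the 8 tested members, 1 was called lower and 0 higher by edgeR's quasi-likelihood test at an FDR of 0.05, where 11.9% of all 13941 tested genes were called lower, 11.1% higher and 22.9% in either direction. At an unadjusted p under 0.05, 2 members were lower and 0 higher, where 4742 of all 13941 tested genes passed in either direction, and DESeq2 and limma-voom each called 2 lower and 0 higher. The number lower was also 2 without pairing by mouse, without mouse M1 (Myl9 added) and without mouse M2 (Des added). The count of 1 is thus near the share of all genes, and the members' median log2 fold change was -0.13, beside 0.02 over all tested genes; under the 12 alternatives the median ran from -0.27, without mouse M1, to -0.11. Among all tested genes, 1654 were called lower and 1544 higher; without mouse M3 the number called higher was 969, and without mouse M4 it was 1024. In RNA of a whole gonad, fewer cells of a type and less RNA per cell cannot be told apart.

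**Figure D1:**
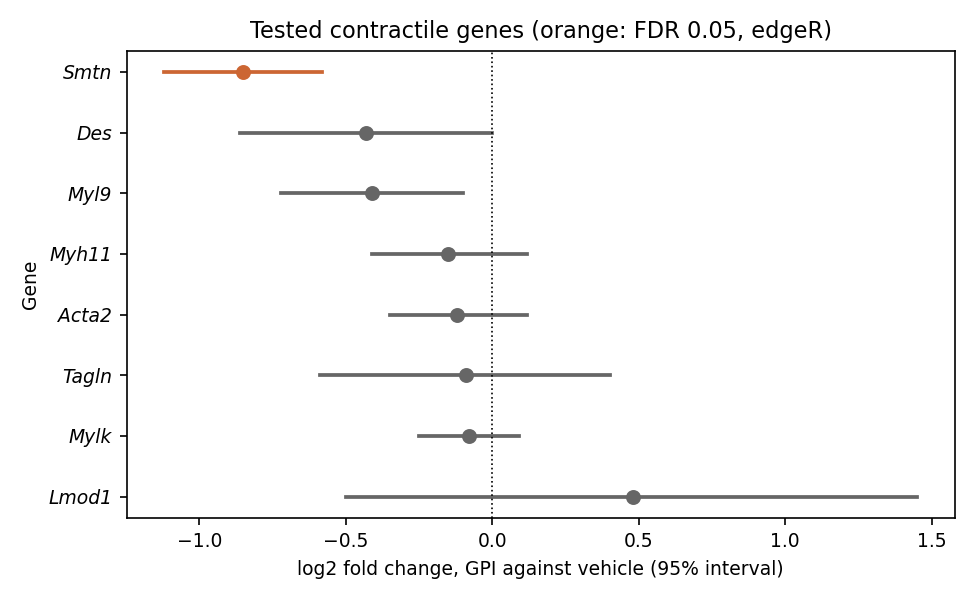
Log2 fold change of each tested contractile gene, GPI against vehicle, with its 95% interval (horizontal axis) from edgeR over 5 pairs of gonads; Smtn, in orange, passed an FDR of 0.05. Its interval runs from -1.12 to -0.58, that of Myl9 from -0.72 to -0.10, and those of the other 6 genes include 0.

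Levels are given as normalized counts, that is, counts scaled by TMM to the mean effective library size of 12320317, with SD over 5 gonads. Between genes, levels were compared per kb of the longest annotated transcript. In vehicle, Acta2 had the highest level per kb, 556 ± 67.2 (SD, n = 5), followed by Myl9 with 410 ± 65.5 (SD, n = 5) and Mylk with 388 ± 22.5 (SD, n = 5). The Myl9 libraries ran from 348 to 517 per kb, which takes in the whole Mylk range of 363 to 414 and reaches the lowest Acta2 library at 486. Des (135 ± 41.3), Smtn (119 ± 5.06) and Myh11 (81.5 ± 25.3, each SD, n = 5) came next, and their ranges met. Tagln had 43.7 ± 8.13 per kb (SD, n = 5), with its highest library, 52.5, above the lowest of Myh11, 48.5. At the lower end were Actg2 (6.47), Lmod1 (4.47) and Cnn1 (2.57), each a mean per kb over 5 libraries. So among the 10 members in vehicle gonads, Acta2, Myl9 and Mylk had the highest levels per kb, and Actg2, Lmod1 and Cnn1 the lowest. The Mylk level is that of the gene, since its count takes in several products and was divided by the longest transcript.

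Promoter sequence was looked at because SRF acts on several of these genes through the CArG box. RefSeq's promoter table (GRCm38.p6, the patch level of mm10) held 7 of the 10 members: Acta2, Myl9, Mylk, Cnn1, Smtn, Lmod1 and Des. In the 250 bases before each start, a CArG box was searched exactly and with 1 mismatch allowed; the motif reads the same on both strands. An exact match was present in 1 of the 7, Myl9, and in 1.47% of 32817 promoter windows of the same length. With 1 mismatch, 3 of the 7 had at least 1 match (Acta2, Myl9 and Lmod1), beside 18.6% of all windows. The stretches before the start of Acta2 (chr19:34255374-34255623, minus strand), Myl9 (chr2:156775214-156775463, plus strand) and Smtn (chr11:3539293-3539542, minus strand) are shown because they belong to the most abundant member per kb, the member with the exact match and the member that fell. Capitals mark CArG matches with at most 1 mismatch.
Acta2: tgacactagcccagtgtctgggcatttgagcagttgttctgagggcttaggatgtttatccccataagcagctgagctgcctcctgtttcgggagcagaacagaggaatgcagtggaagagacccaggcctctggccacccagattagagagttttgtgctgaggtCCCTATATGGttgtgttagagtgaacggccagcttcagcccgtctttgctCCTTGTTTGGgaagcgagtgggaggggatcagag
Myl9: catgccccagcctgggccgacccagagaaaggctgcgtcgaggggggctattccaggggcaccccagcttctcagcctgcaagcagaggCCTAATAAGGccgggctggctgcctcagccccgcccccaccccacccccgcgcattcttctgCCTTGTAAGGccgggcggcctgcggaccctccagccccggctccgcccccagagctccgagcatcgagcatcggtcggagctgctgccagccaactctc
Smtn: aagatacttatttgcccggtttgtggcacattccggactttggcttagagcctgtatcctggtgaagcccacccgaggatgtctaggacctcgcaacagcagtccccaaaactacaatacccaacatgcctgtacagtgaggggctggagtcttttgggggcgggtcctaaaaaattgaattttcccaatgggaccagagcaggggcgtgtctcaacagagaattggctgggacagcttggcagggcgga
In Acta2 the matches begin 84 and 34 bases before the start, each with 1 mismatch. In Myl9 the exact match begins 161 bases before the start and a match with 1 mismatch 99 bases before it. The Smtn window holds no such letters, which says nothing of other parts of the gene.

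Acta2 (Entrez Gene 11475, chr19:34240336-34255373 in mm10) encodes smooth muscle alpha-actin. Its vehicle libraries had 989, 1325, 1207, 1104 and 1029 normalized counts in mice M1 to M5, and the GPI libraries 1334, 965, 1069, 889 and 983. Acta2 was lower with GPI in 4 mice and higher in M1, and the ranges overlapped. M1 with GPI was the highest of all 10 libraries, whereas the GPI libraries of M2, M4 and M5 lay below every vehicle library. Means were 1131 ± 137 with vehicle and 1048 ± 172 with GPI (SD, n = 5), a log2 fold change of -0.12 (standard error 0.11, 95% interval -0.35 to 0.12, edgeR adjusted p = 0.508). Over the 12 alternatives this value ran from -0.27, without mouse M1, to -0.03, without mouse M2. The adjusted p, from the test of each alternative, ran from 0.0505 to 0.886.

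Actg2 (Entrez Gene 11468, chr6:83512909-83536251), the gamma-actin of enteric smooth muscle, did not pass the low-count filter. Vehicle libraries M1 to M5 had 5, 10, 9, 8 and 10 raw counts, and GPI libraries 12, 5, 3, 10 and 5. It was detected in every library of both treatments, and the ranges overlapped. With the filter left out, edgeR estimated the log2 fold change at -0.39 (standard error 0.72; edgeR adjusted p = 0.799). Reads of the actins could in principle be split between genes, since their coding sequences are alike; however, 0 of the 1936 windows of 100 bases in the longest Acta2 transcript, and 0 of the 1234 in that of Actg2, occurred in a transcript of another gene. The same share, 0%, was found for each of the other 8 members.

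Myh11 (Entrez Gene 17880, chr16:14194527-14291408) encodes the smooth muscle myosin heavy chain, the most specific marker of the lineage. With vehicle it had 318, 756.5, 581, 435 and 579.8 normalized counts in M1 to M5, and with GPI 396, 485, 496, 399.8 and 569.9. Vehicle libraries spread more widely than GPI libraries, with a coefficient of variation of 31.1% against 15.5%, and every GPI value lay within the vehicle range. The means were 534 ± 166 and 469 ± 72.9 (SD, n = 5), and the log2 fold change was -0.15 (standard error 0.12, 95% interval -0.41 to 0.12, edgeR adjusted p = 0.444), lower in 4 of 5 mice; it was -0.27 without mouse M1 and -0.02 without mouse M2.

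Myl9 (Entrez Gene 98932, chr2:156775464-156781657) encodes the regulatory light chain that the kinase phosphorylates. Its vehicle libraries had 393, 446, 418, 584 and 469 normalized counts in M1 to M5, and its GPI libraries 404, 386, 357, 268 and 319. Only the GPI library of M1 reached the vehicle range, and the lowest GPI value was in M4. The means were 462 ± 73.9 and 347 ± 54.4 (SD, n = 5), a log2 fold change of -0.41 (standard error 0.14, 95% interval -0.72 to -0.10) with an edgeR adjusted p = 0.0548, just short of the threshold. This call depends on the setting: without pairing by mouse the edgeR adjusted p was 0.0312, with DESeq2 0.0345, with limma-voom 0.0449 and without mouse M1 0.0149. Leaving out another mouse gave edgeR adjusted p values above the threshold, up to 0.246 without M4, and the log2 fold change ran from -0.54 without M1 to -0.24 without M4.

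Mylk (Entrez Gene 107589, chr16:34784950-35002434) encodes myosin light chain kinase; the count adds together its long and short kinase forms and telokin, a small protein made from the same gene. It gave the most counts of any member, with 2844, 2903, 3194, 2990 and 3242 normalized counts in the vehicle libraries M1 to M5 and 2901, 3266, 2827, 2389 and 3031 in the GPI libraries. It was lower in 3 mice and higher in 2, and M4 with GPI was the lowest library. The means, 3034 ± 176 and 2883 ± 322 (SD, n = 5), gave a log2 fold change of -0.08 (standard error 0.08, 95% interval -0.25 to 0.09, edgeR adjusted p = 0.528). Over the 12 alternatives this value ran from -0.14 to -0.02. Mylk has the narrowest interval of the tested members. Reads were counted without regard to strand, and 2 genes on the other strand, 1700119H24Rik and E130310I04Rik, overlap Mylk, with 0.632% and 1.8% as many counts.

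Smtn (Entrez Gene 29856, chr11:3517522-3539292) encodes smoothelin, an actin-binding protein of contractile smooth muscle, in a shorter visceral and a longer vascular form that the count does not separate. The vehicle libraries had 427, 413, 389.7, 385.5 and 404 normalized counts in M1 to M5, and the GPI libraries 206, 297, 257, 177 and 198. All 5 GPI libraries lay below all 5 vehicle libraries, as in 9.05% of all tested genes, and Smtn was lower in 5 of 5 mice, as were 15.2% of them; among the 8 tested members it was the only one with either property. The means were 404 ± 17.1 with vehicle and 227 ± 48.8 with GPI (SD, n = 5), so the GPI level was 55.4% of vehicle by the fitted log2 fold change of -0.85 (standard error 0.12, 95% interval -1.12 to -0.58, edgeR adjusted p = 0.000203). In the 12 alternatives this value ran from -0.95 to -0.78, with adjusted p from 6.57e-08 to 0.00193. Smtn also had the tightest vehicle values of the 8, with a coefficient of variation of 4.24%, against 21.5% with GPI.

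Transcripts of the other thin filament proteins were scarce. Tagln (Entrez Gene 21345, chr9:45929628-45936058), or transgelin, had 64.2, 50.1, 75.9, 83.7 and 74.7 normalized counts with vehicle in M1 to M5 and 76.1, 74.6, 67.5, 66.3 and 43.6 with GPI. The ranges overlapped, and it was lower in 3 mice and higher in 2, with a log2 fold change of -0.09 (standard error 0.23, 95% interval -0.59 to 0.40, edgeR adjusted p = 0.823), a width that leaves room for a change of either sign; without mouse M5 the estimate was 0.07. Tagln overlaps Pcsk7 on the other strand over 96 bases, a gene with 1245 counts in the 10 libraries together against 684 for Tagln, so some of these reads cannot be assigned to one or the other.

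Lmod1 (Entrez Gene 93689, chr1:135324813-135368065), a leiomodin that nucleates actin filaments, had 9.97, 33.4, 17.9, 4.98 and 22.1 normalized counts with vehicle and 11.2, 28.4, 43.7, 24.2 and 13.1 with GPI, in the order M1 to M5. Its values differed 6.71-fold between the lowest and highest vehicle library, and the log2 fold change of 0.48 (standard error 0.45, 95% interval -0.50 to 1.45, edgeR adjusted p = 0.509) has the widest interval of the 8; it ran from 0.12 without mouse M4 to 0.80 without mouse M5. Cnn1 (Entrez Gene 12797, chr9:22099253-22109221), calponin 1, was below the filter, with raw counts of 1, 9, 2, 15 and 2 in the vehicle libraries and 8, 2, 19, 5 and 8 in the GPI libraries. Neither treatment was consistently higher for Cnn1, which was lower in 2 mice and higher in 3; with the filter left out, edgeR estimated the log2 fold change at 0.69 (standard error 0.90; edgeR adjusted p = 0.723).

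Des (Entrez Gene 13346, chr1:75360292-75368579) encodes desmin, the muscle intermediate filament that pericytes also contain. Its vehicle libraries had 602, 271, 448, 373.5 and 352 normalized counts in M1 to M5, and its GPI libraries 402, 373, 318.5, 130.5 and 326. It was lower with GPI in 4 mice and higher in M2, and the GPI library of M4 was the lowest of the 10. The means were 409 ± 125 and 309.9 ± 106 (SD, n = 5), a log2 fold change of -0.43 (standard error 0.20, 95% interval -0.86 to 0.00, edgeR adjusted p = 0.15). Without mouse M2, the one mouse in which it was higher, Des was called lower, with a log2 fold change of -0.65 and an edgeR adjusted p = 0.0282. Without mouse M4 the value was -0.19 (edgeR adjusted p = 0.514), and these are the ends of its range over the 12 alternatives.

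**Figure D2:**
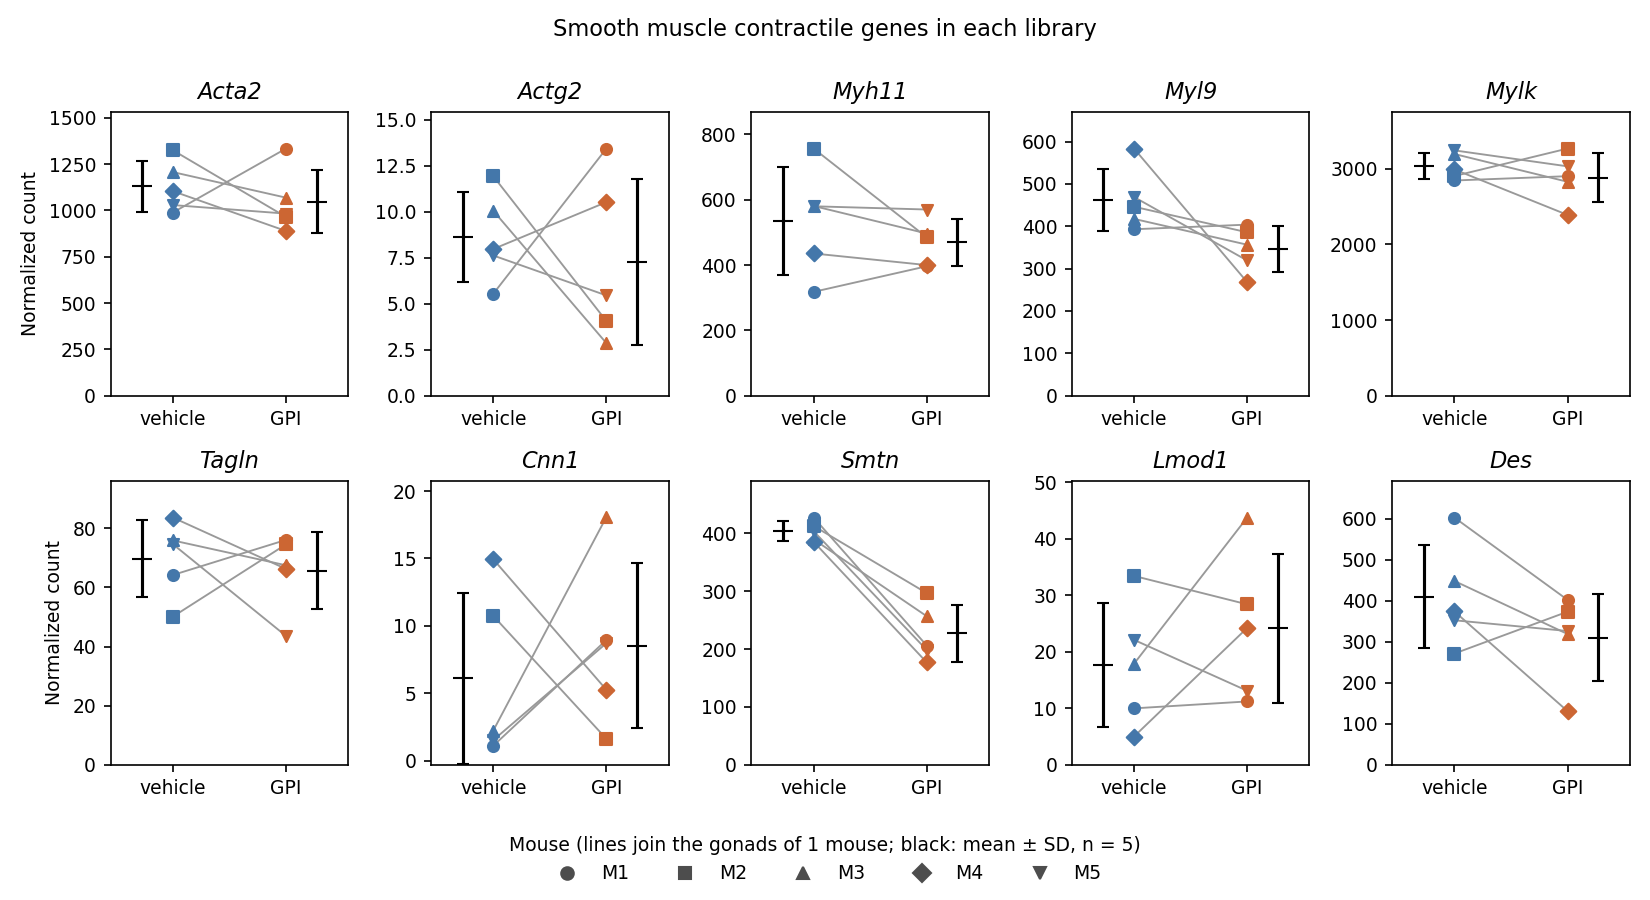
Normalized counts (vertical axes, each starting at 0 or, where an SD bar reaches below it, lower) of the 10 contractile genes in vehicle and GPI libraries; lines join the gonads of 1 mouse, and black bars give the mean ± SD over 5. In the Smtn panel the 5 GPI points, 177 to 297, lie below the 5 vehicle points, 385.5 to 427.

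The mice differed in how the members moved. In M5 all 8 tested members were lower with GPI, and in M3 and M4 7 of 8 were, whereas in M1 6 of 8 were higher. The median log2 ratio of the 8 was 0.09 in M1, -0.22 in M2, -0.20 in M3, -0.33 in M4 and -0.33 in M5, beside medians of 0.01 or 0.02 over all tested genes. M4 had the lowest ratios of Des (-1.50) and Myl9 (-1.12), and M1 the highest of Acta2 (0.43) and Myh11 (0.32). On a principal component analysis of all tested genes, the GPI library of M1 scored -35.4 and the vehicle library of M2 -28.3 on PC3, and the other 8 libraries 2.6 to 10.9. In M1 itself, Smtn (-1.05) and Des (-0.58) were the only members of the 8 with a lower level in the GPI gonad.

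**Figure D3:**
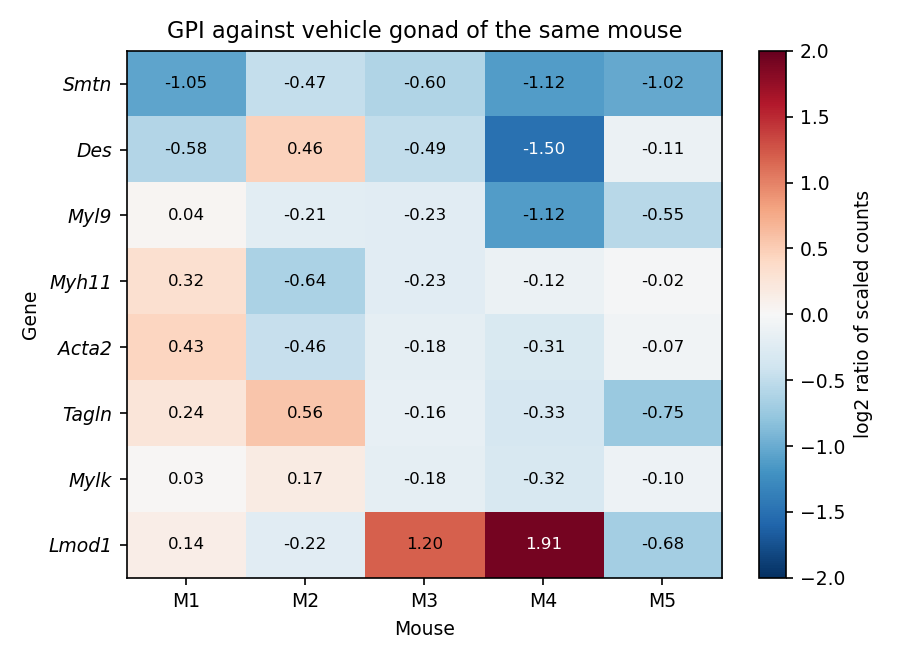
Log2 ratio of scaled counts (prior count 2), GPI gonad over vehicle gonad of the same mouse, for the 8 tested contractile genes (vertical) in 5 mice (horizontal). Smtn is negative in all 5 columns, from -1.12 to -0.47, and M1 is positive for 6 of the 8 genes.

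Because contractile genes are made by mural cells as well as by peritubular cells, markers of mural cells were summed in each gonad and set beside the members. All 9 tested mural markers, of 10 listed, were called lower with GPI and 0 higher, with a median log2 fold change of -1.66 (0 higher also by DESeq2, by limma-voom and at an unadjusted p under 0.05). Together they gave 10180, 10650, 10530, 10650 and 9878 normalized counts with vehicle in M1 to M5, and 2222, 1896, 1832, 1628 and 1824 with GPI, which is 15.3% to 21.8% of the vehicle gonad of the same mouse. The 10 contractile genes together gave 5654, 6221, 6343, 5983 and 6181 with vehicle and 5753, 5879, 5456, 4360 and 5498 with GPI, which is 72.9% to 102% of the same mouse's vehicle gonad. In each of the 5 mice, then, the marker sum was at most 21.8% of its vehicle value and the sum of the contractile genes at least 72.9% of it; the difference between the sums was not tested. Abcc9 alone gave 48.6% to 54.1% of the mural sum with vehicle, and Mylk 46.7% to 52.4% of the contractile sum. Without Abcc9 the mural sum was 25.7% to 37.8% of vehicle, and without Mylk the contractile sum was 65.8% to 101%, both left out after the values were seen. The ratio to vehicle was lowest in M4 and highest in M1 for both sums.

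Abcc9, the sulfonylurea receptor subunit of a potassium channel, gave the most counts of the mural markers with vehicle (with GPI it was Pdgfrb, with a mean of 620.5), with 5310, 5760, 5399, 5442 and 4801 normalized counts with vehicle and 383, 342, 346, 289 and 398 with GPI (log2 fold change -3.93, standard error 0.10, edgeR adjusted p = 4.33e-11). For its channel partner Kcnj8 the log2 fold change was -4.07 (standard error 0.16), for the surface protein Mcam -1.66 (standard error 0.08) and for Pdgfrb, the receptor by which pericytes are recruited, -1.55 (standard error 0.09), each lower in 5 of 5 mice. None of the 10 markers was at 0 in every library. Ndufa4l2, named after its values were seen, was the only one of the 9 tested that was not lower in all 5 mice: its GPI gonad of M1 had 273 normalized counts against 232.5 with vehicle, and the other GPI gonads had 4.21 to 17.4. Pdgfrb and Mcam are also found outside mural cells, in mesenchyme and in endothelium. Endothelial markers fell too, 7 of 7 tested with 0 higher by edgeR, DESeq2, limma-voom or at an unadjusted p under 0.05, and a median log2 fold change of -3.54; their sum, with Cdh5 giving the most counts with vehicle and Kdr with GPI, was 7258, 7571, 6809, 7970 and 7015 in the vehicle gonads M1 to M5 and 788, 948, 649, 519.7 and 678 in the GPI gonads. The log2 fold changes were -3.63 for Cdh5, -5.18 for Flt1, -4.16 for Pecam1 and -2.44 for Kdr. Their part in the level of the contractile genes was not tested.

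**Figure D4:**
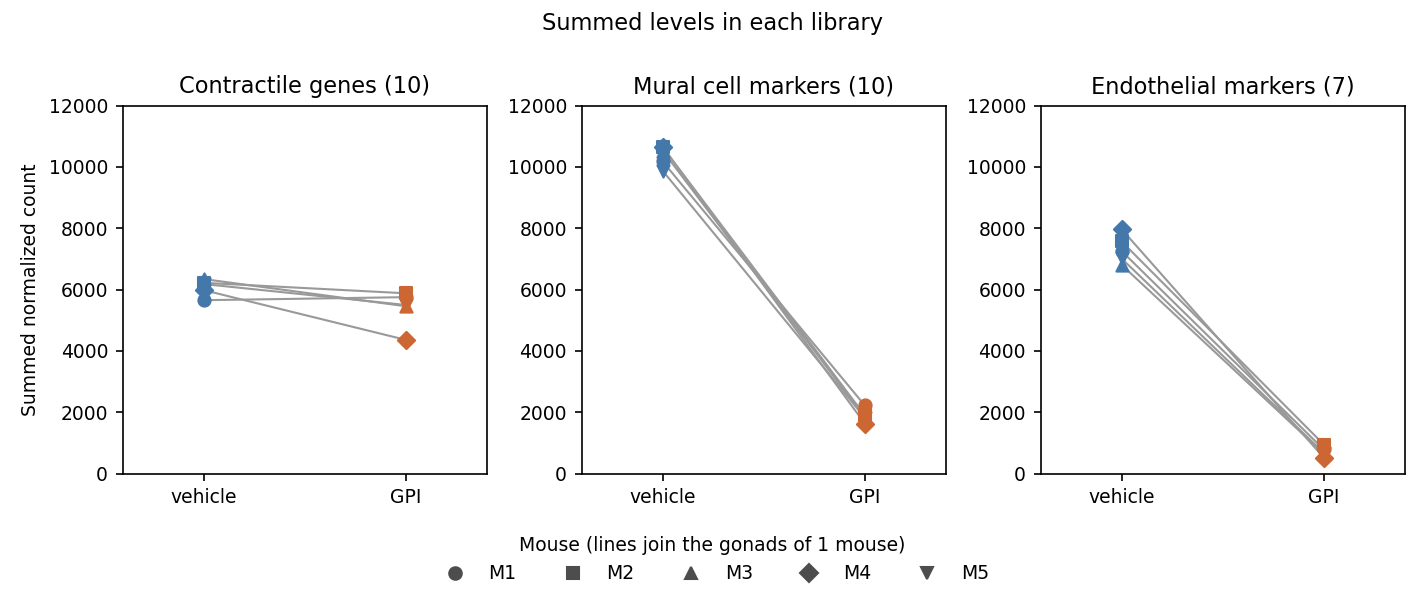
Summed normalized counts (vertical axis, from 0) of the 10 contractile genes, 10 mural cell markers and 7 endothelial markers in each library; lines join the gonads of 1 mouse. The contractile sum spans 5654 to 6343 in vehicle gonads and 4360 to 5879 in GPI gonads, and the mural sum 9878 to 10650 and 1628 to 2222.

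Partners of the same filaments, shared by smooth muscle and other cells, were called lower in larger number; whether they differ from the members was not tested. Of 15 filament partners, 11 were called lower and 0 higher (also 0 by DESeq2, by limma-voom and at an unadjusted p under 0.05), with a median log2 fold change of -0.44 beside 0.02 over all tested genes. Tagln2, a relative of transgelin, fell from 1349 ± 286 to 375 ± 59.2 normalized counts (SD, n = 5; log2 fold change -1.84, standard error 0.13, edgeR adjusted p = 4.4e-07). The intermediate filament protein Vim fell with a log2 fold change of -0.96 (standard error 0.07), the tropomyosin Tpm4 with -0.80 (standard error 0.07) and the non-muscle and smooth muscle caldesmon gene Cald1 with -0.34 (standard error 0.06), all in 5 of 5 mice.

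Upstream of myosin, the genes that set light chain phosphorylation gave a smaller median. Of 11, 5 were called lower and 0 higher by edgeR, DESeq2 and limma-voom, with 1 higher at an unadjusted p under 0.05, and a median log2 fold change of -0.15. Over the 12 alternatives this median ran from -0.26 to -0.15. Prkg1, the cGMP-dependent kinase through which nitric oxide relaxes smooth muscle, had 373, 346, 379.7, 428 and 324 normalized counts with vehicle in M1 to M5 and 278, 210, 177, 172.5 and 101 with GPI (log2 fold change -1.03, standard error 0.16, edgeR adjusted p = 0.000338). No GPI value of Prkg1 reached the vehicle range. Calm2 (-0.48), Rock1 (-0.38) and Rhoa (-0.35), the last chosen after its values were seen, were also lower on the log2 scale, while Rock2 (-0.15) and the phosphatase subunit Ppp1cb (0.06) were not called; with total counts alone Rock2 was called lower (-0.20, edgeR adjusted p = 0.034).

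The list of genes for dense plaques, where the filaments reach the membrane, and for actin attachment had the lowest median among the partner lists, -0.48. Of its 16 genes, 11 were called lower and 2 higher. The collagen receptor subunit Itga1 fell most, from 618.5 ± 199 to 114 ± 62.7 normalized counts (SD, n = 5; log2 fold change -2.49, standard error 0.24, edgeR adjusted p = 6.33e-06). Csrp1 (-1.28), Itgb1 (-0.62) and Flna (-0.30) were lower on the log2 scale as well, and Vcl (-0.09) was not called. The 2 genes called higher, named after their values were seen, were Pdlim3 (0.86) and Hspb1 (0.49); Hspb1 was not called without mouse M3 (edgeR adjusted p = 0.085) or without mouse M4 (0.0817), which left 1 gene called higher.

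Transcription factors that act on contractile genes, some of them as activators and some, such as Klf4, as repressors, made up a further list. Named SRF and cofactors, it also holds factors that are neither, such as Mef2c, Klf5 and Tbx18. Of its 11 genes, 3 were called lower and 0 higher by edgeR, DESeq2 and limma-voom, with 2 higher at an unadjusted p under 0.05. Its median log2 fold change was -0.11 (-0.20 to -0.08 over the 12 alternatives). Srf itself had 168 ± 23.1 and 158 ± 27.7 normalized counts (SD, n = 5; log2 fold change -0.09, standard error 0.16, edgeR adjusted p = 0.737), and Myocd 259 ± 35.8 and 249.8 ± 69.3 (SD, n = 5; -0.08, standard error 0.13, edgeR adjusted p = 0.707); both were chosen after their values were seen. Mef2c (-0.55), Klf5 (-0.90) and the SRF cofactor Mrtfb (-0.26) were called lower and Gata6 (-0.11) was not, all on the log2 scale. The Mrtfb call was lost without mouse M2 (edgeR adjusted p = 0.0512) and without mouse M3 (0.0824), and that of Klf5 without pairing by mouse (0.0526). A gene called higher appeared in some settings, Tbx18 without pairing by mouse, without the low-count filter or without mouse M5 (log2 fold change 1.60, edgeR adjusted p = 0.0227) and Klf4 without mouse M2 (0.48, edgeR adjusted p = 0.0192).

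TGF-beta signals, which induce the contractile program in many mesenchymal cells, included genes called in both directions. Of 11 tested genes, of 12 listed, 2 were called lower and 2 higher, beside 11.9% and 11.1% of all tested genes. Whether the list differs from all genes was not tested. The median log2 fold change was 0.02, and -0.05 to 0.05 over the 12 alternatives. The ligand Tgfb1 fell from 388 ± 36.9 to 111 ± 15.4 normalized counts (SD, n = 5; log2 fold change -1.81, standard error 0.14, edgeR adjusted p = 6.16e-07) and the receptor Tgfbr2 fell by 1.01 (standard error 0.10), whereas Tgfbr1 (0.35, standard error 0.07) and Smad2 (0.36, standard error 0.09) rose, all on the log2 scale. The ligand Tgfb2 had a log2 fold change of 0.02 and was not called. Smad2 was not called without mouse M3 (edgeR adjusted p = 0.0508), which left 1 gene called higher.

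Receptors and channels of smooth muscle gave the widest spread. Of 10 tested, of 11 listed, 3 were called lower and 2 higher, with a median log2 fold change of -0.07 (-0.16 to -0.04 over the 12 alternatives). The endothelin receptor Ednrb, which endothelial cells also carry, fell from 672 ± 108 to 40.4 ± 5.93 normalized counts (SD, n = 5; log2 fold change -4.05, standard error 0.16, edgeR adjusted p = 2.1e-09), and Ednra, the endothelin receptor of smooth muscle, fell by 0.65 (standard error 0.09). The oxytocin receptor Oxtr rose from 194 ± 74.0 to 1047 ± 137 (SD, n = 5; log2 fold change 2.48, standard error 0.15, edgeR adjusted p = 8.93e-08). The remaining calls, named after their values were seen, were Kcnmb1 (log2 fold change -1.82) and the muscarinic receptor Chrm3 (2.85), on means of 20.2 and 6.07 normalized counts for Kcnmb1 and 8.90 and 55.7 for Chrm3, vehicle before GPI. The calcium store genes Itpr1 (-0.16) and Atp2a2 (0.19) were not called; Itpr1 was called lower with total counts alone (-0.21, edgeR adjusted p = 0.0302) and Atp2a2 higher without mouse M5 (0.24, edgeR adjusted p = 0.0397).

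**Figure D5:**
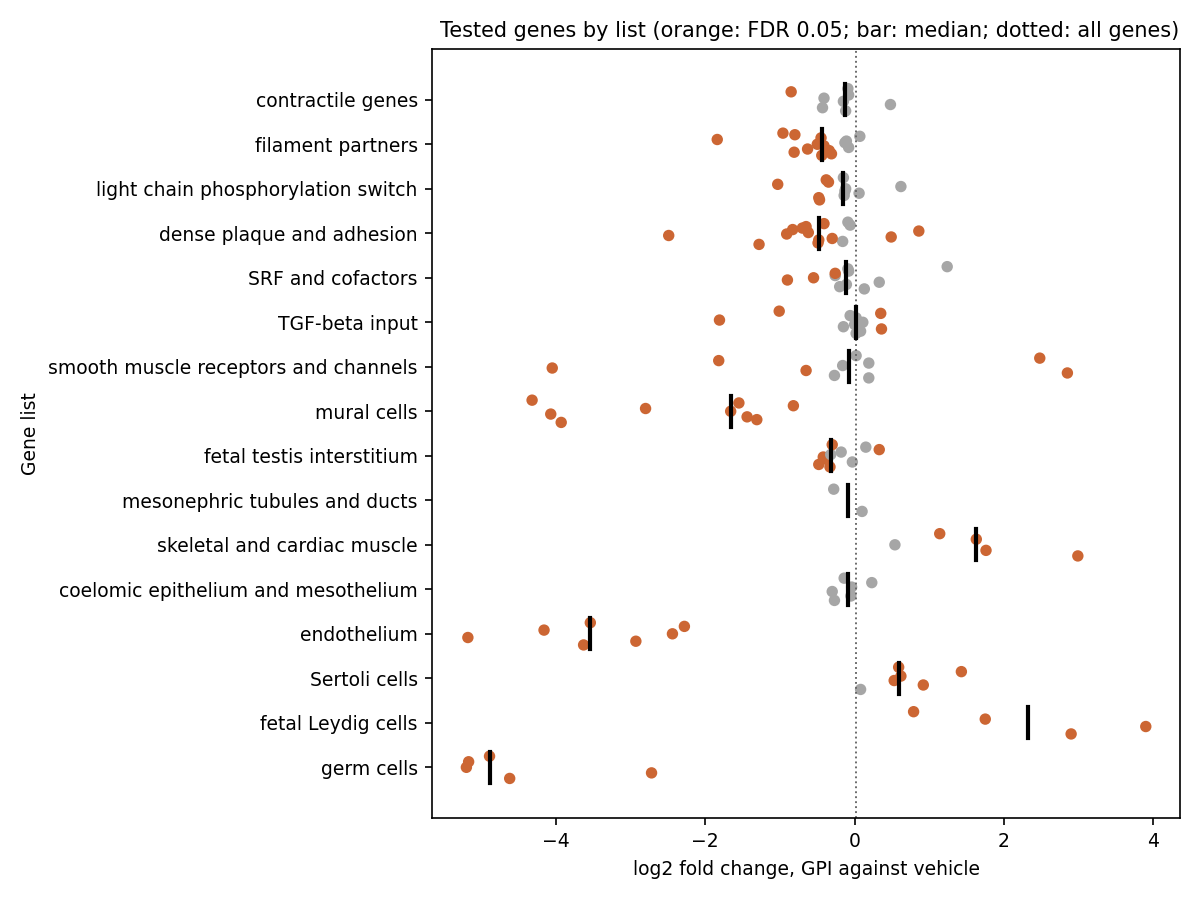
Log2 fold change of every tested gene (points) by list (vertical axis), with GPI against vehicle on the horizontal axis; black bars are list medians, orange points passed an FDR of 0.05, and the dotted line is the median of all tested genes, 0.02. The contractile genes have a median of -0.13, mural cells -1.66 and endothelium -3.54.

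Cells outside the vessels were described by further marker lists. Of 10 interstitial markers, 5 were called lower and 1 higher, with a median log2 fold change of -0.31; Col1a1 (-0.48) and Gli1 (-0.42) were lower, Pdgfra (0.33) was higher and the most abundant, Col1a2 (-0.03), was not called. Tcf21 (-0.30) and Dcn (-0.37), also called lower, were named after their values were seen. The number called lower was 6 with total counts alone, 4 with DESeq2, 3 without pairing by mouse, 2 without mouse M2, and 1 without mouse M3 or without mouse M4, where only Col1a1 was left; the number called higher was 2 without mouse M1. By adjusted p, from edgeR unless named otherwise, Gli1 lost its call without pairing (0.0702) and without M3 (0.0739) or M4 (0.0611), Dcn with DESeq2 (0.166), without pairing (0.106) and without M1 (0.11), M2 (0.0989), M3 (0.085) or M4 (0.104), and Tcf21 without M2 (0.0586), M3 (0.0942) or M4 (0.0743). The summed level was 37340 to 48310 with vehicle and 34410 to 44690 with GPI.

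Other sources of contractile transcripts were checked in the same way. Tubules and ducts of the mesonephros, which is attached during culture, were covered by 9 markers of which 2 were tested, Pax8 (-0.28) and Gata3 (0.10), with a median log2 fold change of -0.09 and 0 called in either direction by edgeR, DESeq2, limma-voom or at an unadjusted p under 0.05. Pax8 had the highest mean with vehicle (179, with 399.7 in M1) and Gata3 with GPI (150.4); the sum was 859, 364, 492, 210.2 and 272 with vehicle in M1 to M5 and 366, 404, 268, 262 and 267 with GPI. The M1 vehicle gonad had the highest sum, and none of the 9 was at 0 throughout. Of 6 tested mesothelial and coelomic epithelial markers, of 7 listed, 0 were called by any of these tools or at an unadjusted p under 0.05 (median -0.09), with Wt1 the most abundant (-0.14), Upk3b at 0.23, Krt18 at -0.27 and Lrrn4 at -0.04; their sum was 7160 to 8436 with vehicle and 6517 to 7950 with GPI. With total counts in place of TMM, Wt1 was called lower (-0.19, edgeR adjusted p = 0.0491). The median of this list ran from -0.17 to -0.05 over the 12 alternatives. The part of these cells in the contractile genes was not tested.

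Among striated muscle genes, those called were higher. Of 12 skeletal and cardiac muscle genes 5 were tested, 4 of them called higher and 0 lower by edgeR, DESeq2 and limma-voom (5 higher and 0 lower at an unadjusted p under 0.05), with a median log2 fold change of 1.63. Myh6, a cardiac myosin heavy chain and the one of the 12 with the most counts over the 10 libraries together (in vehicle it was Ttn, with a mean of 194), rose from 103 ± 45.2 to 807 ± 279 normalized counts (SD, n = 5; log2 fold change 2.99, standard error 0.22, edgeR adjusted p = 5.53e-07). Ttn (1.14), Tnnt2 (1.63) and Myh7 (1.76, named after its values were seen) were higher as well, Myh8 (0.54) was called only without mouse M4 (0.74, edgeR adjusted p = 0.035) or without the low-count filter (0.0478), and Myod1, which defines skeletal muscle, was at 0 in all 10 libraries. The 7 that were not tested had few counts and no common direction; Actn2, named after its values were seen, had means of 14.2 with vehicle and 7.67 with GPI and was lower in 4 of 5 mice. The sum of all 12 was 409, 529.8, 498, 587 and 544 with vehicle in M1 to M5 and 1257, 1443, 1715, 2305 and 1701 with GPI, so every GPI gonad lay above every vehicle gonad. Myh11, the smooth muscle myosin gene, was not called in either direction.

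Markers of the remaining cell types differed in direction. Sertoli cell markers were called higher in 5 of 6 and lower in 0 (median 0.60; Sox9 0.59, Sox8 1.43, Dhh 0.92, Inhbb 0.62), fetal Leydig cell markers higher in 4 of 4 tested, of 5 listed, and lower in 0 (median 2.32; Cyp17a1 3.90, Cyp11a1 2.90, Hsd3b1 1.75), and germ cell markers lower in 5 of 5 and higher in 0 (median -4.89; Dppa3 -5.20, Dazl -4.62, Sall4 -4.89, Ddx4 -2.72), all log2 fold changes from edgeR. The counts of 0 were also 0 by DESeq2, by limma-voom and at an unadjusted p under 0.05. Amh (log2 fold change 0.08, edgeR adjusted p = 0.842), named after its values were seen, was the Sertoli cell marker not called. Vehicle and GPI gonads had sums of 1794 to 2635 and 2484 to 4289 for Sertoli cells (Sox9 the most abundant), 1280 to 5303 and 9634 to 18090 for fetal Leydig cells (Hsd3b1 with vehicle, Cyp11a1 with GPI), and 628 to 2024 and 27.6 to 123 for germ cells (Dazl with vehicle, Ddx4 with GPI). The part of each cell type in the level of the contractile genes was not tested.

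The genes whose pattern over the 10 libraries was most like that of the members were looked for among 10979 genes outside the lists with a mean of at least 50 counts over the 10 libraries. Pearson correlations with the mean standardised log2 level of the 8 tested members were 0.90 for Inf2, a formin that assembles actin filaments, 0.895 for Rab11fip5, 0.89 for Sec31a, 0.884 for Tgm2 and 0.88 for Tyrobp. These are descriptions over 10 libraries that share 2 treatments and 5 mice. Sec31a (log2 fold change -0.23, edgeR adjusted p = 0.0302) and Tyrobp (-1.41, edgeR adjusted p = 0.00638) were called lower, Sec31a no longer without mouse M3 (0.0903), M4 (0.156) or M5 (0.0685), and Inf2 (-0.25), Rab11fip5 (-0.28) and Tgm2 (-0.13) were not called. Rab11fip5 was called lower without mouse M1 (-0.37, edgeR adjusted p = 0.0441).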

How the data were processed

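Read pairs were mapped to mm10 by the authors, using STAR 2.5, and assigned to RefSeq Curated genes regardless of strand by featureCounts of Subread 1.5.0-p1 (versions from the submitters' processing notes). Raw counts were deposited for 24470 entries in 10 columns, 1 per gonad, with 0 other value columns, and were used as deposited. Libraries were amplified without molecular identifiers, so error was taken from the spread between embryos. Genes passed filterByExpr (minimum count 10, minimum total 15), were scaled by TMM and tested by edgeR's quasi-likelihood test with mouse and treatment in the design, p being adjusted by Benjamini-Hochberg across every tested gene and called at an FDR of 0.05. Standard errors are the log2 fold change divided by the root of F. Libraries were paired because the labels give both gonads of a mouse the same animal; deviations from the treatment mean correlated at 0.06 on average within a mouse and -0.015 between mice (p = 0.05 in a one-sided exact permutation of all 120 pairings). Chi-square per degree of freedom between libraries of a treatment was 6.42 to 27.81, so none was a duplicate.

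The members and lists were chosen with earlier results of these data known. Named were all 10 members, of each list the 3 genes with the smallest p and the 3 with the highest mean count, 5 most alike genes and genes overlapping a member; some of these are not reported here, and others are said to be chosen after their values were seen. Lengths came from GENCODE M21 by Entrez identifier and promoters from RefSeq (GRCm38.p6). Alternatives were no replicate block, DESeq2, limma-voom, DESeq2 size factors, total counts alone, 2 other filters and leaving out each mouse; list medians under them, the search for promoter motifs and the check for outlying libraries in list sums were added after seeing the data. The code was tested on simulated data. Python 3.11.15 (numpy 2.4.6, matplotlib 3.10.9) read sequences and drew figures, and R 4.3.3 ran DESeq2 1.42.0, edgeR 4.0.16 and limma 3.58.1.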

Additional observations from a re-analysis of the deposited data

Results flagged for a closer look

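Of 52 groups of 5 libraries examined (each member and each list sum, with each treatment), 2 held a library far from the other 4; about 1 in 20 groups would by chance. The summed level of the 10 contractile genes in the GPI gonad of M4 was 4360 normalized counts, below the other GPI gonads at 5456 to 5879. The summed level of smooth muscle receptors and channels in the vehicle gonad of M5 was 10460, above the other vehicle gonads at 9762 to 9958. Without mouse M4 the number of contractile genes called lower was 1, as with it.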

How the results depend on the processing

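The number of contractile genes called lower was 1 in 4 of 12 alternatives and 2 in the other 8: without the replicate block (pairing by mouse), DESeq2, limma-voom, total counts alone, no low-count filter and at least 10 counts in every library, each 2 with Myl9 added, and 1 to 2 when a mouse was left out, with Myl9 added without M1 and Des without M2. The number called higher was 0 in all 12, and the median ran from -0.27 to -0.11. All genes called numbered 2311 to 3472. Of 95 single values for the 8 tested members, 86 kept direction and side of the threshold, 8 passed it and 1 turned sign: Tagln was 0.07 without M5, and -0.26 to 0.07 when a mouse was left out. Among the 80 other named genes, 907 of 954 values kept both, 24 lost the call, 11 gained it and 12 turned sign, each from a gene that was not called: Gata3 (-0.01 without the block, 0.00 with limma-voom, -0.04 without M1, -0.18 without M4, to 0.35 without M2), Tgfb2 (-0.03 with total counts, -0.05 without M2 and without M5), Col1a2 (0.01) without M1, and, over mice left out, Myocd (-0.14 to 0.02), Ppp1cb (-0.07 to 0.09), Lrrn4 (-0.16 to 0.13) and Srf (-0.22 to 0.05). Of the partner lists, SRF and cofactors had 1 called higher without the block and with no low-count filter, and 0 to 1 when a mouse was left out; receptors and channels had 5 lower with total counts alone and 1 higher with at least 10 counts in every library, where Chrm3 drops out; dense plaque and TGF-beta genes had 1 to 2 higher when a mouse was left out. Germ cell markers called lower numbered 1 with at least 10 counts in every library, a filter that removes the other 4. For the other changes the cause was not tested. At 10203679 to 15635322 counts per library, Actg2 and Cnn1 did not pass the filter, and Lmod1 and Tagln have the widest intervals of the tested members.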
